A study of Mus musculus with 8 samples.

Results

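The T cell receptor complex and T cell genes described here are 14 probe sets of 10 genes, out of 45101 probe sets on the arrays, chosen by probe set ID for genes of T cell antigen receptor signalling and T cell identity. Blood was drawn from the vena cava of mice on 4 arrays from animals given cobalt chloride (CoCl2) and 4 arrays from control animals, and its total RNA was measured on one-colour arrays, 1 array per sample. CoCl2 stabilises hypoxia-inducible factors (HIF) at normal oxygen, which is called chemical hypoxia. The labels give the treatment as 200 ng CoCl2 per 100 ml and day under room conditions, with bleeding after 15 days, and title the controls chamber controls. They give no strain, sex or age. Each array title carries its own number, but the labels do not say whether the numbers stand for separate animals. The spread behind each p-value may therefore be technical.

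The antigen receptor of a T cell recognises peptides held by MHC molecules, but its own chains carry no signalling motif, and the signal is passed on by the CD3 chains bound to it. The coreceptors CD4 and CD8 bind MHC class II and class I and bring the kinase Lck to the receptor. Lck phosphorylates the CD3 chains, and LAT, a membrane adaptor, then assembles the signalling proteins downstream. CD5 dampens this signal, TCF-1 (encoded by Tcf7) is a transcription factor of naive and memory T cells, and the interleukin-7 receptor alpha chain (Il7r) keeps resting T cells alive. The CD3 chains are the most T cell-restricted of these. In mice Lck and Lat are also found in NK cells, Lat in platelets and mast cells, Cd8a in some dendritic cells, Cd5 in a subset of B cells and Il7r in innate lymphoid cells. In whole blood, a lower number of T cells and less RNA per T cell cannot be told apart, nor can their opposites.

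Promoter windows of Cd3e, Lck and Lat are shown because they are the member genes whose windows hold ACGTG, 1 form of the core of the HIF-binding element. Lck and Lat passed the test as higher with CoCl2 and Cd3e did not pass it. Other forms of that core were not searched, so a window without ACGTG may still hold one. The sequences are from RefSeq, build GRCm38.p6, from 250 bases before to 50 bases after the annotated gene start, 5′ to 3′ on the gene's strand, and capitals mark ACGTG and the RUNX motif TGTGGT on either strand.
Cd3e, chr9:45009562-45009861, minus strand: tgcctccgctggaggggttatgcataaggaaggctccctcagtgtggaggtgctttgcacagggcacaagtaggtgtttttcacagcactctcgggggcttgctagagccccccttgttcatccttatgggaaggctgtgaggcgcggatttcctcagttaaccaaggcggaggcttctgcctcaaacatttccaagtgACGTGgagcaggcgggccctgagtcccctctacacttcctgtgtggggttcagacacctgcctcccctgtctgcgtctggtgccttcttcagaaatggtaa
Lck, chr4:129573592-129573891, minus strand: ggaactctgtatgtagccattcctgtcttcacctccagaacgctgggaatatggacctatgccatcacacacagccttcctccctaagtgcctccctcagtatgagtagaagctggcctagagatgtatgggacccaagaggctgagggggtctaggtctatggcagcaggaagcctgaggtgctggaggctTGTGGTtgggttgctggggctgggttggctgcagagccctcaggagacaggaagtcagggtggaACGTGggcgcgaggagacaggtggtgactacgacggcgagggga
Lat, chr7:126369519-126369818, minus strand: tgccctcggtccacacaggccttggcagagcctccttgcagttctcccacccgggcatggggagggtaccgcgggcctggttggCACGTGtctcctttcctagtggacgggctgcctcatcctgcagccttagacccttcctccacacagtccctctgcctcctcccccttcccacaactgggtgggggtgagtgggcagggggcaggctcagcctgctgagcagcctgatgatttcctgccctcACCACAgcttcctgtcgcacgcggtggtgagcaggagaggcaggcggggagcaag
In Cd3e ACGTG starts at position 200 of the window, and in Lck at position 257. Lck has another annotated start, and the window of that start, not shown, holds neither motif. In Lat it occurs on both strands within 1 CACGTG, an E-box that holds ACGTG in each direction. Of 11 windows of 9 member genes in the RefSeq promoter table, 3 held ACGTG, against 19.6% of all 32851 windows of 300 bases. The RUNX motif was found in 3 of the 11 windows (Lck, Lat and Il7r), against 16.8% of all, and the TCF motif CTTTGA in 1 (Cd3d), against 16.0%. The Cd4 window was not used here. A match shows only that these letters are present.

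In the blood of CoCl2-treated mice, 7 probe sets of 6 T cell genes were higher than in controls, while the 3 CD3 chains among the members did not pass the test in either direction. The rises were in Cd8a (both probe sets), Lat, Lck, Cd5, Tcf7 and Il7r, and ran from 0.73 to 2.01 on the log2 scale, that is from 1.66-fold to 4.04-fold. Of the 14 members, 12 passed the filter on dim probe sets and were tested, 7 of them were higher at an adjusted p under 0.05 (limma, Benjamini-Hochberg over all 22519 tested probe sets), and 0 were lower. At an unadjusted p under 0.05, 9 tested members were higher and 0 lower, against 34.5% and 19.7% of all tested probe sets, and at a q-value under 5% in the authors' deposited table, 9 were higher and 1 lower. These counts stand beside a broad background: 45.1% of all tested probe sets passed the test, 28.6% as higher and 16.5% as lower, and 69.1% of the probe sets in the authors' deposited table passed there, 47.6% as higher and 21.4% as lower. With no filter, 5 of the 14 members passed as higher, against 10.8% of all probe sets. The median log2 difference of the 14 members was 0.76, against 0.19 over all tested probe sets, and 11 of 14 were positive, against 60.2% of the tested probe sets.

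**Figure D1:**
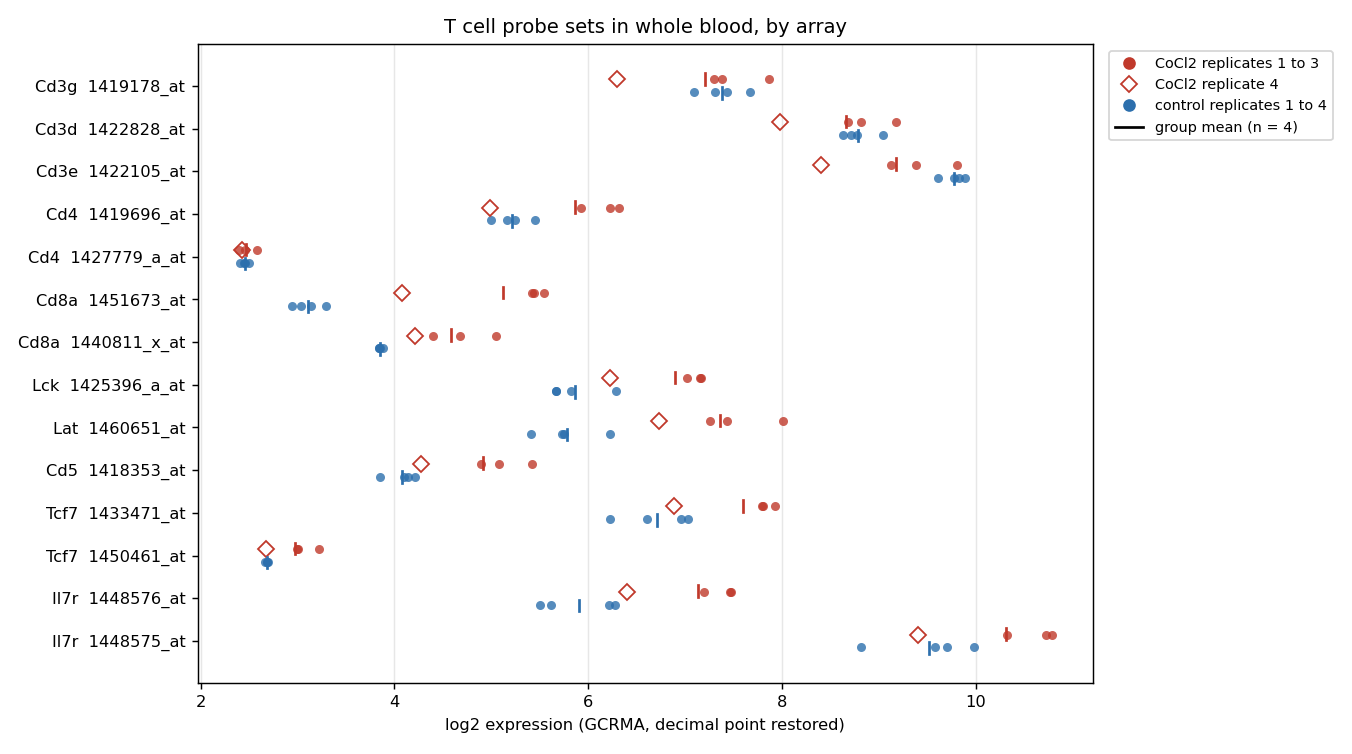
Log2 expression of the 14 T cell probe sets (x axis) on each array, with 1 row per probe set. Filled red points are CoCl2 replicates 1 to 3, open diamonds CoCl2 replicate 4, blue points the 4 control arrays and short lines the group means. The CD3 rows overlap between the groups, while for 1451673_at (Cd8a) the lowest CoCl2 array, 4.07, lies above the highest control, 3.29.

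Array 4 of the CoCl2 group stood apart on these genes, and it is given first because several results below rest on it. It was the lowest CoCl2 array on 13 of the 14 members, against 36.9% of all tested probe sets. Its median deviation from the CoCl2 group mean was -0.70 on the log2 scale over the 14 members and -0.04 over all tested probe sets, and 1.88% of the tested probe sets lay at or under -0.70 on that array. The other CoCl2 arrays had median member deviations of 0.29, 0.22 and 0.16, and the control arrays lay between -0.05 and 0.08. All 14 members varied more in the CoCl2 group than in controls, by a median SD ratio of 2.74, while 44.4% of the tested probe sets did. Without that array, 9 of the 14 members varied more in the CoCl2 group, against 37.0% of the tested probe sets. Its median over all mouse probe sets was 2.80, within the 2.79 to 2.80 of the CoCl2 arrays, and its bacterial controls bioB and bioC averaged 11.32, within their 11.17 to 11.47. Without it, 9 of 12 tested members passed as higher, against 28.2% of tested probe sets, 0 passed as lower, and the median difference of the 14 members was 1.00. That array was singled out by its low values on these same members, and omitting it raises their CoCl2 means by construction. The shares of all tested probe sets are therefore no matched comparison for values without it, here or below.

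**Figure D2:**
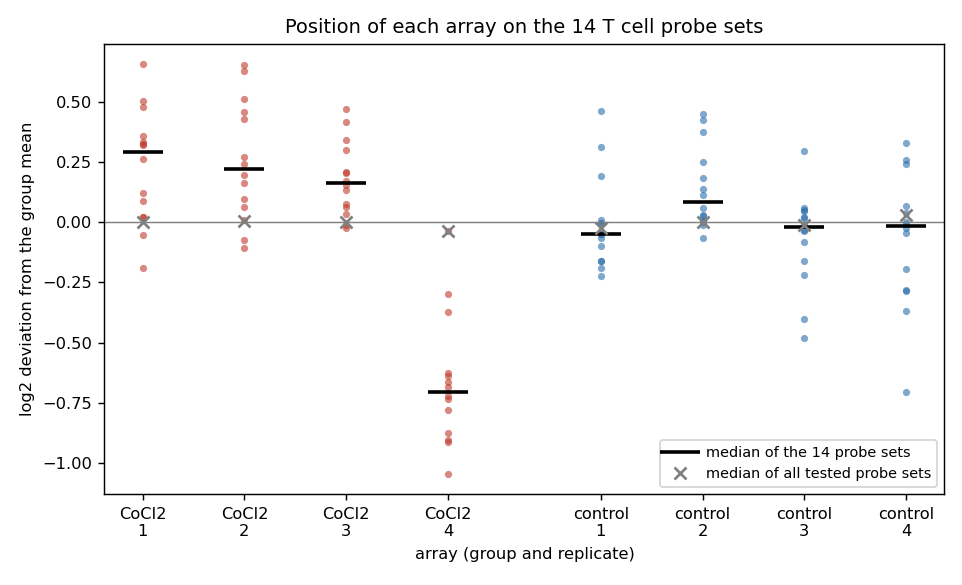
Deviation of each array from its group mean on the log2 scale (y axis), for the 14 T cell probe sets (points) by array (x axis). Black bars are the medians of the 14, -0.70 on CoCl2 replicate 4 and 0.29, 0.22 and 0.16 on the other CoCl2 arrays. Grey crosses are the medians over all tested probe sets, all between -0.04 and 0.03.

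The CD3 chains gamma, delta and epsilon, which carry some of the signalling motifs of the receptor, are encoded by neighbouring genes on chromosome 9 in the RefSeq table. The gamma chain, Cd3g (1419178_at), had log2 values of 7.30, 7.86, 7.38 and 6.30 on the CoCl2 arrays and 7.31, 7.43, 7.67 and 7.09 on the control arrays. The group ranges overlapped, with the highest and the lowest value both in the CoCl2 group. The difference of -0.17 (SE 0.31, 95% interval -0.86 to 0.53, limma adjusted p = 0.675) did not pass the test.

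The delta chain, Cd3d (1422828_at), read 8.68, 9.18, 8.82 and 7.98 with CoCl2 and 8.63, 8.78, 8.71 and 9.05 in controls. Again the CoCl2 arrays bracketed the controls, and the difference was -0.13 (SE 0.24, 95% interval -0.68 to 0.43, limma adjusted p = 0.693). Without CoCl2 replicate 4, the values for Cd3g and Cd3d turned to 0.14 and 0.10, with limma adjusted p-values of 0.599 and 0.649.

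The epsilon chain, Cd3e (1422105_at), had 9.13, 9.81, 9.39 and 8.40 with CoCl2 and 9.61, 9.89, 9.83 and 9.78 in controls. Of the CoCl2 arrays 3 lay under every control and 1 lay inside the control range. The difference of -0.59 (SE 0.27, 95% interval -1.20 to 0.01, limma adjusted p = 0.0992) did not pass, and was -0.33 without CoCl2 replicate 4 (limma adjusted p = 0.174). It passed as lower after quantile normalization, at -0.85 (limma adjusted p = 0.0358), where 18.1% of tested probe sets were lower, and without CoCl2 replicate 2, at -0.80 (limma adjusted p = 0.0321), where 13.6% were lower. In the authors' deposited table its log2 difference was -0.51, with a q-value of 4.06%.

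After quantile normalization and after median centring, as on the scale of the deposited values, the differences of all 3 CD3 chains were negative. Bacterial RNAs bioB and bioC, which do not come from the mice, were lower on the CoCl2 arrays by a log2 difference of -1.82, and centring on them, which removes that shift from every probe set alike, gave differences of 1.65 for Cd3g, 1.69 for Cd3d and 1.23 for Cd3e. With that centring all 12 tested members were higher, as were 91% of all tested probe sets, whose median difference was then 2.00. Median centring gave -0.30, -0.26 and -0.73, none of them past the threshold. On every one of these scales the 3 CD3 chains lay under the median of all tested probe sets, by 0.31 to 0.78 on the scale of the deposited values. Whether they differ from the other members was not tested.

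The coreceptor CD8 alpha chain, Cd8a, showed the largest difference of the members. Probe set 1451673_at read 5.44, 5.54, 5.42 and 4.07 with CoCl2 and 3.29, 3.04, 2.94 and 3.14 in controls. Every CoCl2 array lay above every control, and the mean of 5.12 ± 0.70 (SD, n = 4) against 3.10 ± 0.15 (SD, n = 4) gave a difference of 2.01 (SE 0.31, limma adjusted p = 0.00126), or 4.04-fold. The control values lay near the low end of the scale, so the size of the fold depends on that end. The second Cd8a probe set, 1440811_x_at, whose suffix marks probes that may also bind similar sequences, read 4.40, 4.68, 5.05 and 4.21 with CoCl2 and 3.85, 3.88, 3.84 and 3.85 in controls. These groups did not overlap either, and the difference was 0.73 (SE 0.19, limma adjusted p = 0.0124), or 1.66-fold.

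The coreceptor CD4 was measured by 1419696_at at 6.22, 6.32, 5.93 and 4.99 with CoCl2 and at 5.16, 5.24, 4.99 and 5.46 in controls. CoCl2 replicates 1 to 3 lay above all controls and replicate 4 just under them. The difference of 0.65 (SE 0.28, 95% interval 0.01 to 1.29, limma adjusted p = 0.0874) did not pass the test. Without CoCl2 replicate 4 it was 0.94 and passed (limma adjusted p = 0.00414). In the authors' deposited table its log2 difference was 0.30 with a q-value of 5.52%. The other Cd4 probe set, 1427779_a_at, lay between 2.39 and 2.58 on all 8 arrays, under the filter, with a difference of 0.01 (limma adjusted p = 0.899 without the filter). It is the member that the authors' deposited table does not list.

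Lck, the kinase that starts receptor signalling, read 7.15, 7.16, 7.02 and 6.23 with CoCl2 and 5.67, 6.28, 5.83 and 5.67 in controls (1425396_a_at). CoCl2 replicate 4 fell inside the control range, just under the highest control, and the other CoCl2 arrays lay above it. The mean of 6.89 ± 0.45 (SD, n = 4) against 5.86 ± 0.29 (SD, n = 4) gave a difference of 1.03 (SE 0.24, limma adjusted p = 0.00922), or 2.04-fold.

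Lat, the adaptor downstream of Lck, read 8.01, 7.25, 7.44 and 6.74 with CoCl2 and 5.73, 6.23, 5.75 and 5.41 in controls (1460651_at). The groups did not overlap. The mean of 7.36 ± 0.53 (SD, n = 4) against 5.78 ± 0.34 (SD, n = 4) gave a difference of 1.58 (SE 0.28, limma adjusted p = 0.0023), or 2.99-fold. Lat and 1451673_at of Cd8a were the members that passed when limma's treat was asked for more than a 1.5-fold difference, as 7.27% of tested probe sets did as higher.

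Cd5, the receptor that dampens the signal, read 5.42, 5.08, 4.89 and 4.27 with CoCl2 and 3.85, 4.22, 4.10 and 4.14 in controls (1418353_at). The groups were separated by a narrow gap, between CoCl2 replicate 4 and control replicate 2. The difference was 0.84 (SE 0.23, limma adjusted p = 0.0182), or 1.79-fold, and it missed the threshold without control replicate 1, at 0.76 (limma adjusted p = 0.0508).

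Tcf7 (1433471_at) read 7.92, 7.80, 7.80 and 6.88 with CoCl2 and 6.61, 6.96, 6.23 and 7.03 in controls. CoCl2 replicate 4 lay inside the control range. The difference of 0.89 (SE 0.27, limma adjusted p = 0.0256), or 1.86-fold, had the highest adjusted p of the 7 that passed. It missed the threshold without CoCl2 replicate 1, 2 or 3 and without control replicate 1 or 3, with limma adjusted p-values from 0.0619 to 0.0683, and after quantile normalization, at 0.60 (limma adjusted p = 0.0921). The second probe set, 1450461_at, had a mean of 2.83 over all arrays, under the filter minimum of 2.90. It read 3.00, 3.22, 3.01 and 2.68 with CoCl2 and 2.69, 2.68, 2.70 and 2.66 in controls, a difference of 0.29 (limma adjusted p = 0.103 without the filter).

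Il7r, the interleukin-7 receptor alpha chain, read 7.46, 7.19, 7.47 and 6.40 with CoCl2 and 6.21, 6.27, 5.50 and 5.62 in controls on 1448576_at. The groups did not overlap, and the difference was 1.23 (SE 0.28, limma adjusted p = 0.00836), or 2.35-fold. On 1448575_at it read 10.79, 10.32, 10.73 and 9.40 with CoCl2 and 9.98, 9.70, 9.58 and 8.82 in controls, and CoCl2 replicate 4 lay among the controls. That difference was 0.79 (SE 0.35, 95% interval 0.00 to 1.58, limma adjusted p = 0.0919). It passed without CoCl2 replicate 4, at 1.09 (limma adjusted p = 0.0174). The cell of CoCl2 replicate 2 had more than 1 possible reading in the damaged table, 10.32 or 11.96, and the one nearer to the other arrays was used. With the other reading, an alternative chosen after seeing the data, the difference was 1.20 and did not pass either (limma adjusted p = 0.0710).

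**Figure D3:**
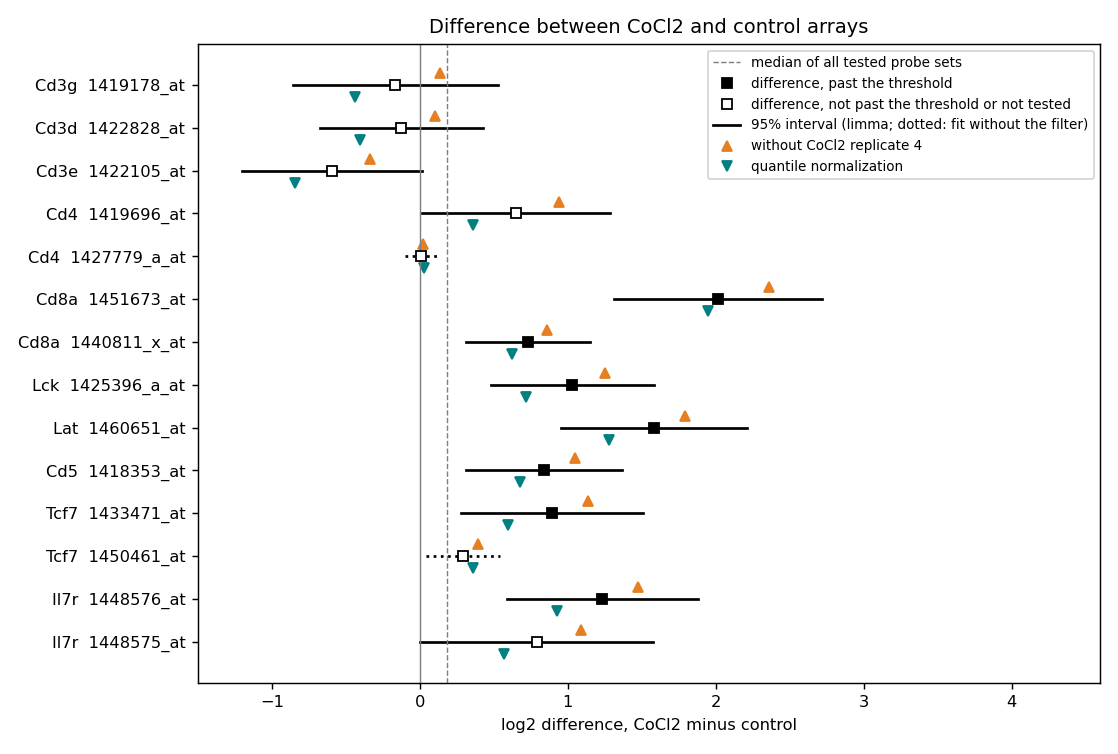
Log2 difference between CoCl2 and control arrays (x axis) for the 14 T cell probe sets, with 95% intervals from limma (dotted for the 2 probe sets under the filter, from the fit without it); filled squares passed the test. Triangles give the value without CoCl2 replicate 4 (upward) and after quantile normalization (downward), and the dashed line is the median of all tested probe sets, 0.19. The 3 CD3 rows lie left of that line and the 7 filled squares right of it, between 0.73 and 2.01.

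Of the 12 tested members, 5 had groups that did not overlap, all as higher, against 45.5% of tested probe sets without overlap, 27.3% as higher. They were both Cd8a probe sets, Lat, Cd5 and 1448576_at of Il7r. On 9 of the 12, CoCl2 replicates 1 to 3 all lay above every control, which held for 33.4% of the tested probe sets. Replicate 4 was set aside here because of its values on the members, so that share is no matched comparison. The authors' deposited table, a SAM comparison, lists 13 of the 14 members. Its log2 differences for the 7 probe sets that passed ran from 0.73 for Cd5 to 1.96 for 1451673_at of Cd8a, with q-values up to 0.214%, and it also has 1448575_at of Il7r at 0.76 (q-value 0.498%) and 1450461_at of Tcf7 at 0.37 (q-value 4.06%). For Cd3g and Cd3d the authors' deposited table gives -0.16 and -0.11, with q-values of 15.9% and 16.5%. That table covers the same comparison, so it is no separate measurement. Its log2 differences are not those of the deposited values, in either direction. It has 1.23 for Lat against 1.58 here, 0.30 for 1419696_at of Cd4 against 0.65, and 1.03 for 1440811_x_at of Cd8a against 0.73. The reason for these departures was not tested.

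For the 4 genes with 2 probe sets, the gap between them within an array was compared between the groups. For Cd8a, the gap between 1451673_at and 1440811_x_at within an array averaged 0.53 ± 0.53 (SD, n = 4) on the CoCl2 arrays, against -0.75 ± 0.15 (SD, n = 4) on the control arrays. It differed by 1.28 between the groups with no overlap (two-sided exact permutation p = 0.029, the smallest that 4 against 4 arrays can give; 0.114 after Benjamini-Hochberg adjustment over 4 genes). For Cd4 the gap differed by 0.64, for Tcf7 by 0.60 and for Il7r by 0.44, with exact permutation p-values of 0.114, 0.0857 and 0.0857 (0.114 each after adjustment). The second probe sets of Cd4 and Tcf7 lay under the filter. That of Cd4 differed by 0.01 between the groups, so the Cd4 gap largely repeats the difference of 0.65 of 1419696_at. The Il7r value depends on how the ambiguous cell of CoCl2 replicate 2 is read. With that cell set to missing the gap differed by 0.43 (exact permutation p = 0.2), and with its other reading by 0.03 (exact permutation p = 0.943). A gene that alone reaches the smallest exact p cannot pass after adjustment over 4 genes. The adjusted values therefore do not decide whether the Cd8a probe sets differ. Without any 1 control array the unadjusted exact permutation p for Cd8a was 0.0571.

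**Figure D4:**
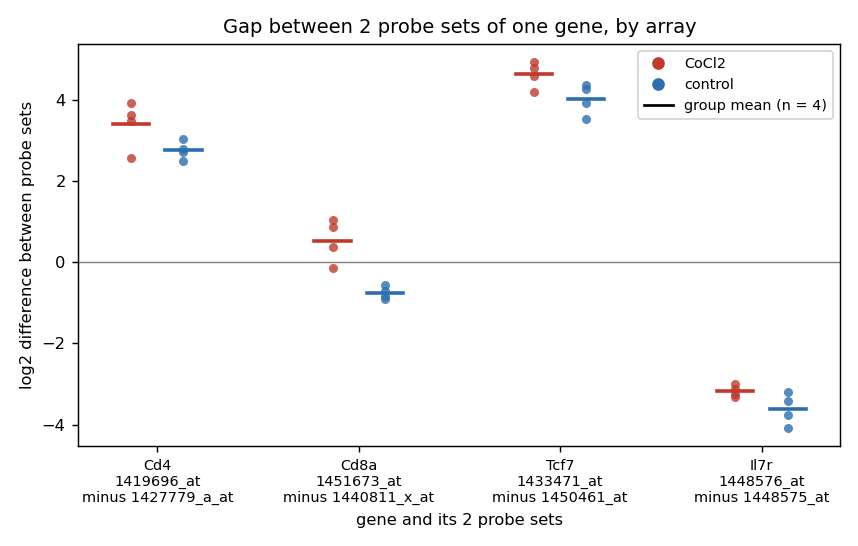
Log2 gap between the 2 probe sets of one gene within an array (y axis) for Cd4, Cd8a, Tcf7 and Il7r (x axis), with red points for CoCl2 and blue points for control arrays and bars for group means of 4 arrays. The Cd8a gap is 0.53 on average with CoCl2 and -0.75 in controls, and the groups do not overlap. The second probe sets of Cd4 and Tcf7 lie under the filter.

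Outside the members, the 3 tested probe sets most like the mean of the 12 tested members over the 8 arrays were 1438293_at, 1457321_at and 1426945_at. Their Pearson r of 0.991, 0.987 and 0.985 is a measure of likeness only, picked as the highest of all tested probe sets and resting on both the group difference and the low CoCl2 replicate 4. Their log2 differences were 0.38, 1.65 and 0.86. The control means of 1438293_at and 1457321_at, 2.75 and 2.56, lay under the filter minimum of 2.90, which applied to the mean over all arrays. The files do not name the genes of these probe sets. Other T cell pathway genes and markers of NK cells, B cells, platelets and other blood cells could not be found by name for the same reason, and they are not analysed here. Their part in the differences above was not tested. The labels name no batch, but the numbers in the array titles fall in separate ranges for CoCl2 and control arrays, and what they count is not stated. The labels also give room conditions for the CoCl2 arrays and name a chamber for the controls, so housing may have differed between the groups. Array handling, housing and treatment cannot be told apart.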

How the data were processed

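Whole-blood RNA was measured on 8 arrays, 4 CoCl2 and 4 control, grouped by the stress label. The submitters' processing notes name GCRMA and Partek, with no version. The authors deposited, for each probe set and array, a score: a log2 value that had lost its decimal point, in some cells turned into a calendar day number. The point was put back from the digits. Of 360808 cells, 353379 were read with 1 digit before the point, 7013 with 2, 403 as day numbers and 13 as they stood. In 1350 (0.374%) several readings were possible, and the one closest to a clear reading of that probe set on another array was used (the highest if no array was clear). Of simulated ambiguous cells, 91.8% came back within 0.005. The log2 scale is assumed. Apart from the cells taken as they stood, only readings within bounds set beforehand were accepted. The restored range, 1.69 to 16.89, therefore does not test that scale.

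Per the file headers, the authors' deposited SAM table gives a score, a numerator (a log2 difference), a fold change (a linear ratio) and a q-value in percent. Its settings were not stated.

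From 45101 probe sets, 64 AFFX controls were left out, and the upper 50% by mean over the 8 arrays (22519, at least 2.90) was tested with limma 3.58.1 in R 4.3.3 (lmFit, eBayes, two-sided, Benjamini-Hochberg, threshold 0.05), after a test on simulated data. The median standard error of a log2 difference was 0.21, limited by the number of arrays. Gaps between probe sets of one gene were compared by exact permutation. Alternatives were other filters, quantile normalization, median centring, centring on 10 bioB and bioC probe sets, a trended robust prior, missing values for ambiguous cells, the replicate number as a block, omission of single arrays, the authors' table and, added after seeing the data, limma's treat and the other reading of an Il7r cell.

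The members and lists were chosen with earlier results of these data known. All 14 members were named by rule, with the 3 probe sets most like their mean. Gene names come from the definition of the set, since the files hold IDs only. All 10 symbols were found in the RefSeq table and 9 in its promoter table. Parts on other T cell pathway genes and on markers of other blood cells could not be run without probe set names.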

Additional observations from a re-analysis of the deposited data

Results flagged for a closer look

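Among the 28 groups of 4 values (14 members in either condition), 4 contained a single array set far apart, where about 1 in 20 would by chance. CoCl2 replicate 4 was the low array in 3 of them: 4.07 for 1451673_at of Cd8a, where the other CoCl2 arrays lay between 5.42 and 5.54, 6.23 for Lck against 7.02 to 7.16, and 6.88 for 1433471_at of Tcf7 against 7.80 to 7.92. These 3 share 1 array and are not separate observations. Control replicate 2 stood at 3.88 for 1440811_x_at of Cd8a, while the other controls lay between 3.84 and 3.85, a gap that is small on the scale of the difference between the groups, 0.73.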

How the results depend on the processing

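Without 1 array at a time, 5 to 9 members passed the test, 0 to 1 of them as lower (Cd3e without CoCl2 replicate 2), beside 35.6% to 45.7% of all tested probe sets, and the median member difference ran from 0.64 to 1.00. The difference in gap ran from 1.11 to 1.51 for Cd8a, from 0.47 to 0.92 for Cd4, from 0.44 to 0.74 for Tcf7 and from 0.29 to 0.58 for Il7r; the exact permutation p-values ran from 0.029 to 0.0571, 0.029 to 0.229, 0.0571 to 0.171 and 0.029 to 0.2, and 3 against 4 arrays cannot give less than 0.029. With the other reading of the ambiguous cell, the Il7r gap differed by 0.03 (exact permutation p = 0.943). Centring on bioB and bioC removes the shift of these controls from every probe set. It gave 12 members as higher, beside 91% of all tested probe sets. The median member difference was then 2.58, against 2.00 over all tested probe sets, with Cd3g at 1.65, Cd3d at 1.69 and Cd3e at 1.23. The treat test, stricter by construction, gave 2 members as higher, beside 7.27% of all tested probe sets. Quantile normalization and the authors' table each gave 1 member as lower (Cd3e), beside 18.1% and 21.4% of their probe sets as lower. The cause was not tested. No filter gave 5 members of 14 as higher, beside 10.8% of all probe sets. Cd5 (limma adjusted p = 0.0517) and Tcf7 1433471_at (0.0732) were then no longer past the threshold. Of the 7 members that passed, 1451673_at and 1440811_x_at of Cd8a, Lat, Lck and 1448576_at of Il7r were past the threshold in every alternative that tested them except that treat test, which Lat and 1451673_at passed; the upper 25% filter left out both Cd8a probe sets.

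Deviations of same-numbered arrays correlated between -0.04 and 0.02 over the tested probe sets. No pairing by number showed across the probe sets as a whole, which does not settle whether the arrays were paired. With the replicate block, 7 members passed, beside 40.9% of all tested probe sets: 1448575_at of Il7r was gained (adjusted p = 0.0137) and 1433471_at of Tcf7 lost (adjusted p = 0.0544). Alternatives for other T cell pathway genes and other blood cell markers were not run, since their probe sets could not be named.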
